A study of Mus musculus with 18 samples.

Results

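The unfolded protein response and heat shock genes are described here as 40 named genes, found by symbol among the 23511 genes of the count table. All 40 were present, 28 acting in or at the endoplasmic reticulum (ER) or in its stress signalling, 10 in the cytosol or nucleus and 2 in mitochondria. Bulk RNA sequencing covered macrophages sorted from the mouse peritoneal cavity by surface Tim-4, a phosphatidylserine receptor encoded by Timd4, with 3 libraries in each of 6 groups. Tim-4low and Tim-4high cells came from mice bearing the MC38-LG tumor in the peritoneal cavity that received anti-Tim-4 on day 7, from MC38-LG mice given an isotype control antibody, and from mice with no tumor and no treatment. MC38 is a mouse colon carcinoma line. Every group was harvested on the same day, day 10 after tumor injection, and the sorted cells were frozen in trizol. The sources used here do not give the strain, genotype, sex or age of the mice or how many mice stand behind a library. Nothing ties the 3 libraries of a group to different mice, and the spread behind each p-value is therefore the spread of libraries, which may be technical.

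Library totals lay between 24530070 and 34110392 estimated counts. Levels are given as CPM, counts per 1000000 counts of the scaled library. The 8 macrophage markers summed to between 17390 and 45080 CPM in every library, and none was at 0. Timd4 lay at 11.9 to 29 CPM in anti-Tim-4, 11 to 75.4 in isotype and 9.13 to 109 in no-tumor Tim-4low libraries, and at 169 to 219, 280 to 320 and 622 to 886 CPM in the Tim-4high libraries of the same conditions. The highest Tim-4low values belonged to isotype library 3 and no-tumor library 1. These numbers also stood apart in both populations by other markers: T and NK cell markers summed to 128 to 142 CPM in the isotype libraries 3, against 16.9 to 31.1 CPM in the other isotype libraries, and B cell markers to 349 to 938 CPM in the no-tumor libraries 1, against 125 to 166 CPM in the other no-tumor libraries. Counts of called genes are therefore also given without the isotype libraries 3 and without the no-tumor libraries 1. Anti-Tim-4 library 3 stood apart by monocyte markers. They summed to 3299 CPM (Tim-4low) and 3858 CPM (Tim-4high) there, against 9049 to 11990 CPM in the other anti-Tim-4 libraries. The anti-Tim-4 libraries 3 were left out singly but not as a pair. In bulk RNA, fewer cells of a type and less RNA per cell cannot be told apart.

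The unfolded protein response is a signalling network that matches the folding capacity of the ER to its load of new secretory and membrane proteins. Its sensors in the ER membrane are Ern1 (IRE1), Eif2ak3 (PERK) and Atf6. Ern1 activates the transcription factor Xbp1 by splicing its messenger RNA, Eif2ak3 slows translation and favours the factor Atf4, and Atf6 is cut to release a factor of its own. Together they drive genes of chaperones, disulfide isomerases and ER-associated degradation. The heat shock response is a separate program of the cytosol and nucleus, in which Hsf1 drives the inducible Hsp70, Hsp90 and Hsp40 chaperones when proteins unfold there. The ER and cytosolic chaperones are therefore kept apart below.

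The letters through which these genes are known to be read can be looked for in their promoters, and are shown because ER and heat shock genes are known for different ones. RefSeq promoters on GRCm38.p6, from 250 bases before to 50 bases after the gene start, were at hand for 33 of the 40 genes. The ER stress element, CCAAT then 9 bases of any kind then CCACG, is the element bound by Atf6 together with NF-Y. It was found on either strand in 7 of the 33 members, or 21.2%, and in 0.137% of the 27025 genes with a promoter. Those 7 are Hspa5, Hsp90b1, Calr, Canx, Dnajc3, Creld2 and Pdia6, all genes of ER folding. One element of each is printed 5′ to 3′ on the strand of the gene, with the element in capitals and 15 bases on each side. Where the capitals begin with CGTGG, the element lies on the opposite strand.
Hspa5: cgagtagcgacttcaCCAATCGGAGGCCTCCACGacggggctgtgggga
Hsp90b1: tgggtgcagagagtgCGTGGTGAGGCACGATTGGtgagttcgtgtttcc
Calr: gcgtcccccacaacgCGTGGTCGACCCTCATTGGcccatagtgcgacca
Canx: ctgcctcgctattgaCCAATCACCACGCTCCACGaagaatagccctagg
Dnajc3: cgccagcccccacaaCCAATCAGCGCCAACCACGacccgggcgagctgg
Creld2: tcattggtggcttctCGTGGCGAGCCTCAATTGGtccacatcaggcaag
Pdia6: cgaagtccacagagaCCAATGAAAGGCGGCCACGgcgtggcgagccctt

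The printed stretches lie at chr2:34772010-34772058 (+) for Hspa5, chr10:86705518-86705566 (-) for Hsp90b1, chr8:84847060-84847108 (-) for Calr, chr11:50325785-50325833 (-) for Canx, chr14:118937812-118937860 (+) for Dnajc3, chr15:88819505-88819553 (+) for Creld2 and chr12:17266476-17266524 (+) for Pdia6. Hsp90b1 held another element upstream in the same window. The ends of the elements lay 46 (Hspa5), 79 (Pdia6), 86 (Dnajc3), 88 (Hsp90b1), 107 (Creld2), 126 (Canx) and 143 (Calr) bases before the RefSeq gene start. The Hspa5 interval given below comes from another annotation and starts upstream of this element, at 34771970. ER stress element II, ATTGG then 1 base of any kind then CCACG, was found in Herpud1 and Dnajb11, and in 0.0444% of all genes with a promoter. In Herpud1 it ended 41 bases before the gene start, at chr8:94386362-94386402 (+), and in Dnajb11 it lay past the start. The heat shock element, GAA then 2 bases of any kind then TTC then 2 bases of any kind then GAA, was found in 3 members, Hspd1, Hspe1 and Hsph1, and in 0.662% of all genes with a promoter. Hspd1 and Hspe1 are neighbours that start head to head on chromosome 1, and both windows hold the same stretch, printed on the Hspe1 strand at chr1:55088044-55088086 with 1 of its 2 overlapping elements, which lies on the opposite strand, in capitals.
Herpud1: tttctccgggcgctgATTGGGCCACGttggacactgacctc
Hspe1: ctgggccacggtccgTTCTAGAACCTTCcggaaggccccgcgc

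Neither the X-box binding element TGACGTGG nor the composite C/EBP and ATF element TGATGNAAT was found in a member, against 0.714% and 1.08% of all genes with a promoter. Each match is a description of letters, and no match says only that these exact letters are not in the window. The stress-inducible Hsp70 genes Hspa1a and Hspa1b had no exact heat shock element. Their windows differed at 4 of 300 bases. The 250 bases before their starts, at chr17:34972157-34972406 (-) and chr17:34959239-34959488 (-), are printed because the copies are hard to tell apart, with the 3 differing bases in capitals.
Hspa1a: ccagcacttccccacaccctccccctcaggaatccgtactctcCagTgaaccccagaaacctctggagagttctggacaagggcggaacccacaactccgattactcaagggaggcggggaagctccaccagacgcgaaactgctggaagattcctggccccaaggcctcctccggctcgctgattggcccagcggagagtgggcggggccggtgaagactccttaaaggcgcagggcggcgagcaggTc
Hspa1b: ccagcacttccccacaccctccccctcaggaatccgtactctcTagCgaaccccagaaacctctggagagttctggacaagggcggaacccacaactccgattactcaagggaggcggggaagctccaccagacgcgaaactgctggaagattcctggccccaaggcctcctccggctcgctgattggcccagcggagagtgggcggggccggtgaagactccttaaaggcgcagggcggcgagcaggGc

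Of all stretches of 100 bases in the Hspa1a transcripts, 47.1% occur letter for letter in those of Hspa1b, so the split of reads between the copies is uncertain and their sum is given beside them. Per transcript length, the most abundant members were the ER chaperone Calr, the constitutive cytosolic Hsp70 Hspa8, the ER Hsp70 Hspa5 and the constitutive Hsp90 Hsp90ab1, at 1304, 1175, 1169 and 1117 TPM (transcripts per 1000000, scaled by length) as the mean of the groups. Ddit3, Trib3, Asns and Chac1 were the least abundant, at 14.1, 0.949, 0.928 and 0.175 TPM. Chac1, an Atf4 target that degrades glutathione, lay at 0 to 0.435 CPM and was left out by the filter on low counts, which kept 39 members and 16609 genes. Hspd1 and Hspe1 overlap at their starts, and counts of overlapping genes are uncertain, since the sources do not say that the counting used strand.

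**Figure D1:**
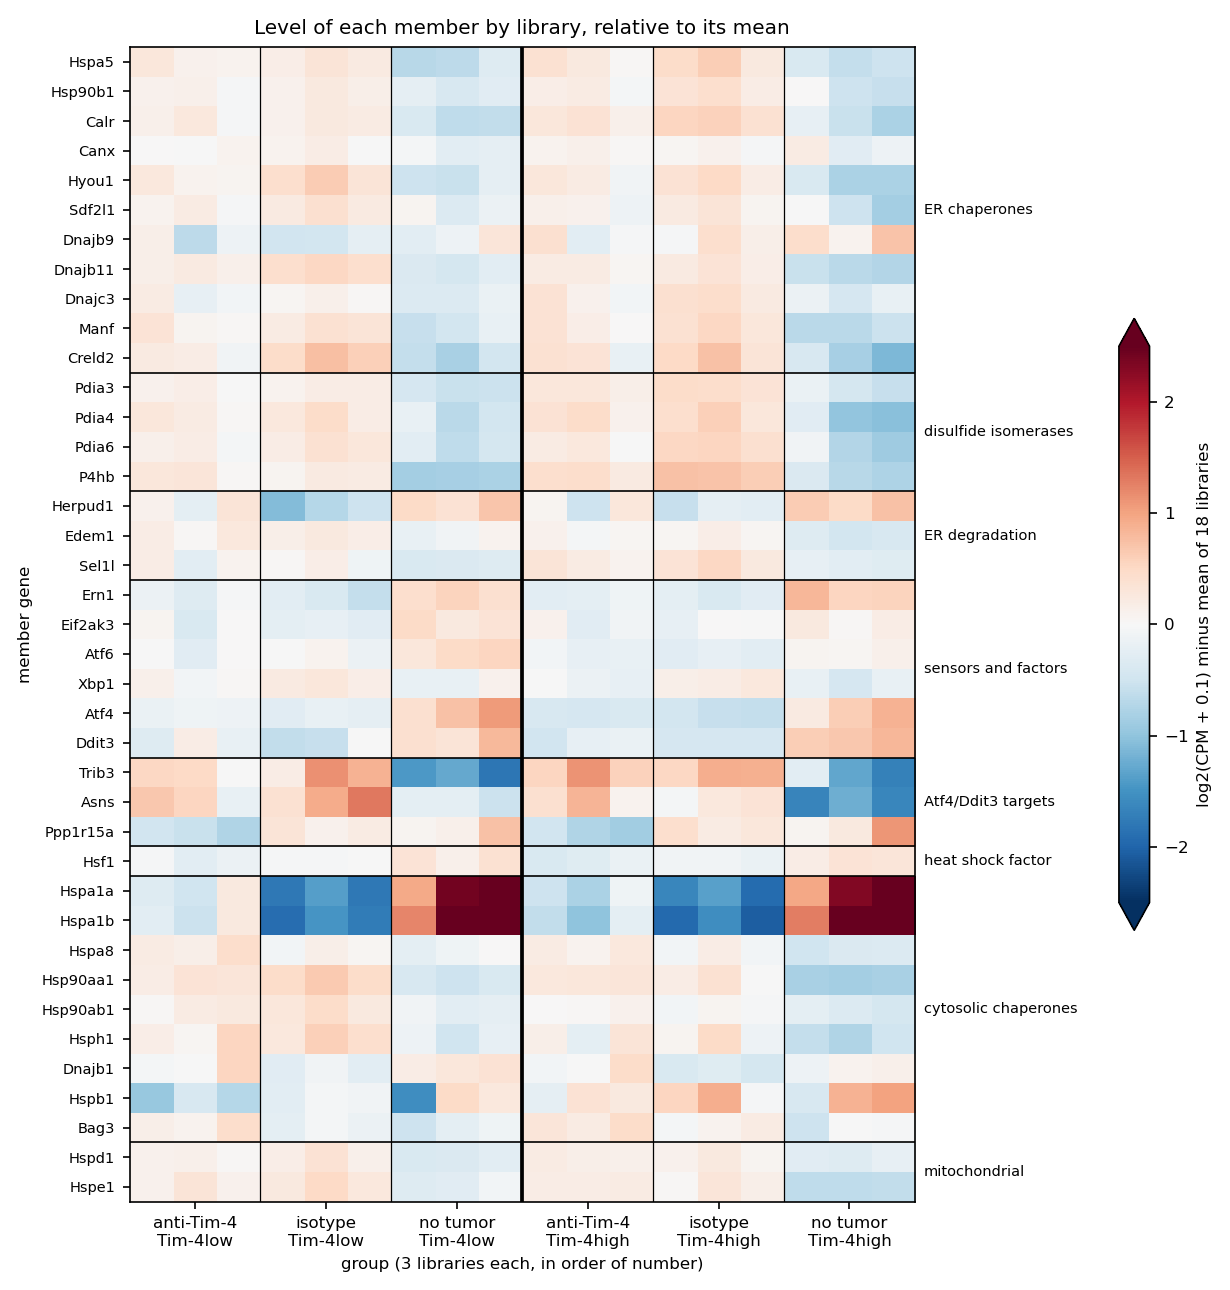
Level of the 39 tested members in every library, as log2(CPM + 0.1) minus the mean of the gene over 18 libraries (colour, cut off at 2.5 on both sides). Rows are grouped by role and columns by group, with the thick line between Tim-4low and Tim-4high. The no-tumor columns are low for most ER chaperones and disulfide isomerases and high for Hspa1a, Hspa1b, Atf4 and Ern1.

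The first comparison asked how the genes differed between macrophages of isotype-treated tumor mice and those of mice without a tumor. All tumor mice also received an antibody and the no-tumor mice no treatment, so tumor and antibody injection cannot be told apart. Changes given here and below as with the tumor are changes with both. Most ER chaperones and all 4 disulfide isomerases rose with the tumor in both populations, by up to 1.29 on the log2 scale, while Hspa1a and Hspa1b fell, at -3.72 and -4.16 in Tim-4high cells. Of the 39 members, 24 rose and 10 fell in Tim-4low cells, where 49.8% of all genes tested were called by edgeR's quasi-likelihood test at an adjusted p under 0.05, 25.2% up and 24.6% down. In Tim-4high cells 24 rose and 9 fell, against a background of 51.5%, 27.3% up and 24.1% down. Called members made up 87.2% of those tested in Tim-4low and 84.6% in Tim-4high cells, in comparisons in which a large part of the whole table moved. The median log2 fold change over the members was 0.39 in Tim-4low and 0.49 in Tim-4high cells, and that over all genes was -0.02 and -0.01. Without the isotype libraries 3 the members called numbered 32 in each population, and without the no-tumor libraries 1 they numbered 32 in Tim-4low and 35 in Tim-4high cells. Where tumor and no-tumor libraries are said below not to overlap, this describes the values of that gene only. The share of all genes without overlap is not given for comparisons with no tumor. Whether such separation is more common among the members than among all genes was therefore not assessed.

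Anti-Tim-4 tumor mice were set against the same no-tumor libraries, so this comparison is not independent of the first. In Tim-4low cells 21 members rose and 9 fell, against a background of 46.7%, 23.8% up and 22.9% down. In Tim-4high cells 24 rose and 9 fell, against 52.9%, 27.4% up and 25.5% down. The median over the members was 0.36 in Tim-4low and 0.45 in Tim-4high cells, and over all genes -0.03 and -0.02. Without the no-tumor libraries 1 the members called were 32 in Tim-4low and 35 in Tim-4high cells.

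Markers of several cell types moved with the tumor, and within a list not all went one way. The 8 macrophage markers summed to 17470 to 20550 CPM in anti-Tim-4, 17390 to 18630 in isotype and 26420 to 29320 in no-tumor Tim-4low libraries, and to 19980 to 20880, 21400 to 22620 and 36420 to 45080 CPM in the Tim-4high libraries of the same conditions. Part of that sum was the lysozyme gene Lyz2, which fell and averaged 9355 CPM in isotype and 22250 CPM in no-tumor Tim-4low libraries, and 7411 and 31720 CPM in Tim-4high libraries. With isotype 3 of the 8 rose and 1 fell in Tim-4low cells and 4 rose and 2 fell in Tim-4high cells, with medians of 0.35 and 0.40, and Cd68, Itgam and Fcgr1 were among those that rose. The 7 monocyte markers summed to 3299 to 11790, 3947 to 5228 and 1557 to 1894 CPM in the Tim-4low libraries, and to 3858 to 11990, 7817 to 7980 and 197 to 340 CPM in the Tim-4high libraries.

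The 7 plasma cell markers, which mark cells rich in ER chaperones, summed to 64.7 to 76.5 CPM in anti-Tim-4, 58.8 to 84.8 in isotype and 242 to 321 in no-tumor Tim-4low libraries, and to 33.8 to 39.7, 33.7 to 36.2 and 54.2 to 91.3 CPM in the Tim-4high libraries. Of the 5 tested, 1 rose and 3 fell with isotype in Tim-4low cells, with a median of -1.75, and 2 rose and 2 fell in Tim-4high cells, with a median of 0.54. Irf4 fell and Prdm1 rose in both populations, and Sdc1 fell in Tim-4low but rose in Tim-4high cells. The 10 B cell markers all fell in both populations with either antibody, and summed to 12.1 to 53.1 CPM over all tumor libraries and 125 to 938 CPM over all no-tumor libraries. With isotype 10 of 13 T and NK cell markers rose in each population, and 5 of 8 neutrophil markers rose in Tim-4low and 6 in Tim-4high cells. By library, the T and NK cell sums were 31.1, 24.8 and 142 CPM in isotype and 123, 51 and 71.5 in no-tumor Tim-4low libraries. In Tim-4high libraries they were 23.7, 16.9 and 128 CPM and 34.1, 9.63 and 7.62 CPM. The neutrophil sums were 86.9, 114.8 and 380 CPM in isotype and 125, 115.5 and 113 in no-tumor Tim-4low libraries. In Tim-4high libraries they were 109, 95.8 and 369 CPM and 264, 215 and 247 CPM. With anti-Tim-4, 1 of the 13 T and NK cell markers rose in Tim-4low and none in Tim-4high cells, and 5 and 4 of the 8 neutrophil markers did. The 10 mesothelial and fibroblast markers summed to 4.31 to 76.2 CPM over all tumor libraries and 0.276 to 0.814 CPM over all no-tumor libraries, with Lum at 0 in the no-tumor Tim-4low and Krt19 at 0 in the no-tumor Tim-4high libraries. Of the listed markers of epithelial tumor cells, only 7 were found among the genes counted. These 7 summed to 8.98 to 24.6 CPM over all tumor libraries and 2.79 to 10.7 CPM over all no-tumor libraries. Of these only Cdh1 rose, averaging 17.3 CPM in isotype and 0.286 CPM in no-tumor Tim-4low libraries, and the median over the 5 tested was below 0 in each comparison with no tumor. The part of these cell types in the changes was not tested.

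**Figure D2:**
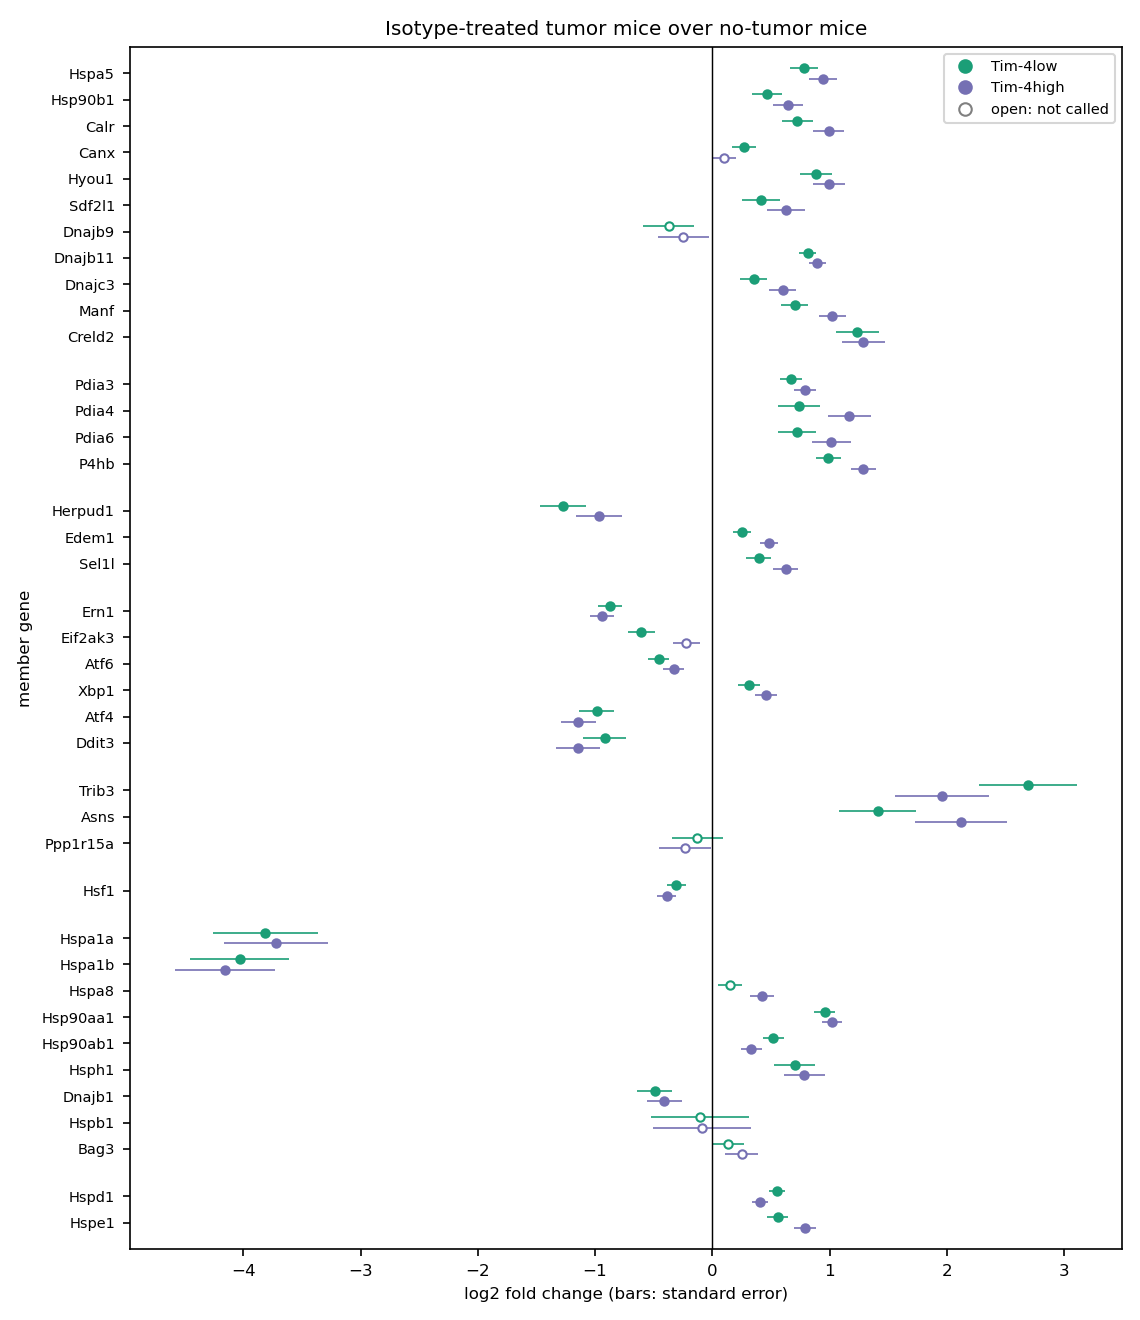
Log2 fold change of each member in isotype-treated tumor mice over no-tumor mice, with its standard error, in Tim-4low (green) and Tim-4high (violet) cells. Filled points were called at an adjusted p under 0.05, with 24 members up in each population and 10 (Tim-4low) and 9 (Tim-4high) down.

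ER chaperones and their cochaperones rose together with the tumor. Of the 11, 10 rose in isotype Tim-4low cells and 9 in isotype Tim-4high cells, with medians of 0.70 and 0.90, and none fell. With anti-Tim-4, 7 rose in Tim-4low and 9 in Tim-4high cells, with medians of 0.53 and 0.72. Of all genes tested, 25.2% (Tim-4low) and 27.3% (Tim-4high) rose with isotype, and 23.8% and 27.4% with anti-Tim-4.

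Hspa5 (BiP; ENSMUSG00000026864, chr2:34771970-34777547, + strand of mm10), the Hsp70 of the ER lumen that also holds the sensors inactive, had 1608, 1426 and 1403 CPM in anti-Tim-4, 1482, 1654 and 1546 in isotype and 823, 847 and 1054 in no-tumor Tim-4low libraries. In Tim-4high libraries Hspa5 had 1725, 1565 and 1356 CPM in anti-Tim-4, 1820, 2037 and 1577 in isotype and 1013, 882 and 928 in no-tumor Tim-4high libraries. Every tumor library lay above every no-tumor library, in both populations. The change was 0.70 ± 0.12 (SE) with anti-Tim-4 and 0.78 ± 0.12 with isotype in Tim-4low cells, and 0.72 ± 0.12 and 0.94 ± 0.12 in Tim-4high cells, with adjusted p up to 0.000226.

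Creld2 (ENSMUSG00000023272, chr15:88819646-88826683, + strand of mm10), a disulfide-handling protein of the ER lumen, changed most among them. Creld2 had 61.1, 59.5 and 49 CPM in anti-Tim-4, 72.2, 88.4 and 78.9 in isotype and 34.4, 29.5 and 37.7 in no-tumor Tim-4low libraries. The Tim-4high values of Creld2 were 68.3, 66.3 and 45.8 CPM in anti-Tim-4, 74.2, 86.4 and 65.1 in isotype and 39.4, 29.2 and 23.8 in no-tumor Tim-4high libraries. The tumor groups did not overlap the no-tumor groups, and the change with isotype was 1.24 ± 0.18 in Tim-4low and 1.29 ± 0.18 in Tim-4high cells, against 0.74 ± 0.18 and 0.96 ± 0.18 with anti-Tim-4.

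Calr (calreticulin), the soluble lectin chaperone, had 1435, 1563 and 1281 CPM in anti-Tim-4, 1420, 1554 and 1508 in isotype and 1005, 847 and 858 in no-tumor Tim-4low libraries. For Tim-4high cells Calr gave 1593, 1678 and 1429 CPM in anti-Tim-4, 1896, 1949 and 1705 in isotype and 1144, 892 and 756 in no-tumor Tim-4high libraries. All tumor libraries lay above the no-tumor ones. Calr rose by 0.66 ± 0.13 and 0.73 ± 0.13 in anti-Tim-4 and isotype Tim-4low cells and by 0.75 ± 0.13 and 0.99 ± 0.13 in Tim-4high cells. Canx (calnexin), its membrane-bound relative, had 574, 566 and 604 CPM in anti-Tim-4, 610.1, 647 and 568 in isotype and 549, 477 and 489 in no-tumor Tim-4low libraries. The Tim-4high values of Canx were 609.9, 623 and 584 CPM in anti-Tim-4, 588, 615 and 562 in isotype and 658, 469 and 521 in no-tumor Tim-4high libraries. The tumor groups lay above the no-tumor group in Tim-4low cells, and in Tim-4high cells no-tumor library 1 was the highest of all. Only the isotype Tim-4low change of Canx was called, at 0.27 ± 0.10 (adjusted p = 0.0391), and it was lost without isotype Tim-4low library 1 or 2 or no-tumor Tim-4low library 2 or 3, with adjusted p up to 0.116.

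Hsp90b1 (Grp94), the Hsp90 of the ER, had 1079, 1097 and 989 CPM in anti-Tim-4, 1085, 1188 and 1118 in isotype and 866, 764 and 829 in no-tumor Tim-4low libraries. Its Tim-4high levels were 1137, 1160 and 976 CPM in anti-Tim-4, 1270, 1339 and 1153 in isotype and 1017, 708 and 676 in no-tumor Tim-4high libraries. No-tumor Tim-4high library 1 overlapped the anti-Tim-4 group, and all other tumor groups lay above. The change of Hsp90b1 was 0.36 ± 0.13 and 0.46 ± 0.13 in anti-Tim-4 and isotype Tim-4low cells and 0.45 ± 0.13 and 0.65 ± 0.13 in Tim-4high cells. The call with anti-Tim-4 in Tim-4low cells was lost without anti-Tim-4 library 1 or 2 or no-tumor library 2 (adjusted p up to 0.0771), and that in Tim-4high cells was lost when only the compared groups were fitted (0.0676).

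Hyou1 (Grp170), a nucleotide exchange factor for Hspa5, had 275, 242 and 240.5 CPM in anti-Tim-4, 306, 356 and 285 in isotype and 160.4, 156 and 196 in no-tumor Tim-4low libraries. Hyou1 in Tim-4high libraries stood at 277, 264 and 216 CPM in anti-Tim-4, 294, 321 and 258 in isotype and 174, 132 and 132 in no-tumor Tim-4high libraries. Each tumor library lay above the no-tumor libraries of its population. The changes of Hyou1 were 0.56 ± 0.14 and 0.89 ± 0.14 with anti-Tim-4 and isotype in Tim-4low cells and 0.79 ± 0.14 and 0.99 ± 0.14 in Tim-4high cells.

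Manf, a small secreted protein that binds Hspa5, had 203, 168 and 163 CPM in anti-Tim-4, 184, 207 and 200.5 in isotype and 107, 116 and 141 in no-tumor Tim-4low libraries. Its Tim-4high levels were 206, 178 and 162 CPM in anti-Tim-4, 209, 229 and 195 in isotype and 100.4, 101 and 110.1 in no-tumor Tim-4high libraries. No tumor library overlapped a no-tumor library of its population. Manf changed by 0.56 ± 0.12 and 0.70 ± 0.12 in Tim-4low cells with anti-Tim-4 and isotype, and by 0.81 ± 0.12 and 1.02 ± 0.12 in Tim-4high cells.

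Dnajb11 (ERdj3), an Hsp40 that delivers substrates to Hspa5, had 163, 172 and 161 CPM in anti-Tim-4, 196, 212 and 197 in isotype and 114, 108 and 122 in no-tumor Tim-4low libraries. Dnajb11 gave 169, 169.9 and 151 CPM in anti-Tim-4, 171, 185 and 164 in isotype and 99.3, 91.7 and 88.4 in no-tumor Tim-4high libraries. The tumor groups lay above the no-tumor groups without overlap. Its changes were 0.53 ± 0.07 and 0.82 ± 0.07 with anti-Tim-4 and isotype in Tim-4low cells, and 0.81 ± 0.07 and 0.90 ± 0.07 in Tim-4high cells, with adjusted p down to 1.4e-07.

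Dnajc3 (p58IPK), an Hsp40 of the ER, had 277, 209.8 and 231 CPM in anti-Tim-4, 252, 265 and 245 in isotype and 190.2, 192 and 215 in no-tumor Tim-4low libraries. In the Tim-4high population Dnajc3 had 309, 259.8 and 231 CPM in anti-Tim-4, 320.4, 328 and 281 in isotype and 219, 182 and 213 in no-tumor Tim-4high libraries. Of the tumor groups, anti-Tim-4 Tim-4low overlapped the no-tumor libraries. It rose with isotype in both populations, by 0.35 ± 0.12 and 0.60 ± 0.12 in Tim-4low and Tim-4high cells, and with anti-Tim-4 in Tim-4high cells by 0.38 ± 0.12. The isotype Tim-4low call was lost without isotype library 2 or no-tumor library 1 or 2 (adjusted p up to 0.0659), and the anti-Tim-4 Tim-4high call without anti-Tim-4 library 1 or no-tumor library 2 (up to 0.079).

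Sdf2l1, a cochaperone of Dnajb11, had 150.1, 163 and 139 CPM in anti-Tim-4, 165, 186 and 165 in isotype and 148, 112 and 127 in no-tumor Tim-4low libraries. Sdf2l1 reached 154, 152 and 129 CPM in anti-Tim-4, 166, 177 and 148 in isotype and 140.5, 98.4 and 78.6 in no-tumor Tim-4high libraries. The isotype groups lay above the no-tumor groups of their population, and the anti-Tim-4 groups overlapped them. With isotype it rose by 0.41 ± 0.16 in Tim-4low and 0.63 ± 0.16 in Tim-4high cells, and with anti-Tim-4 it was called in Tim-4high cells at 0.46 ± 0.16. The isotype Tim-4low call was lost without any 1 of 5 of the 6 compared libraries, all but no-tumor library 1 (adjusted p up to 0.144), and the anti-Tim-4 Tim-4high call without anti-Tim-4 library 1 or 2 or no-tumor library 2 or 3 (up to 0.131). Dnajb9 (ERdj4), an Hsp40 that restrains Ern1, was the exception among them: it was called in no comparison without the replicate block, with log2 fold changes of -0.17 and -0.37 in Tim-4low and -0.38 and -0.25 in Tim-4high cells with anti-Tim-4 and isotype, and levels of 44.7 to 116 CPM over all libraries.

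All 4 protein disulfide isomerases, which form and rearrange disulfide bonds in secretory proteins, rose in both populations with both antibodies. Their medians were 0.60 and 0.73 with anti-Tim-4 and isotype in Tim-4low cells and 0.82 and 1.09 in Tim-4high cells. Of all genes tested, 23.8% to 27.4% rose in the same comparisons.

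P4hb (ENSMUSG00000025130, chr11:120560298-120573253, - strand of mm10), the archetypal isomerase and a subunit of collagen prolyl hydroxylase, had 1240, 1258 and 1037 CPM in anti-Tim-4, 1071, 1193 and 1164 in isotype and 567, 570.1 and 589.5 in no-tumor Tim-4low libraries. Its Tim-4high values were 1349, 1380 and 1190 CPM in anti-Tim-4, 1680, 1664 and 1559 in isotype and 786, 629 and 593 in no-tumor Tim-4high libraries. The lowest tumor library was above the highest no-tumor library in each population. P4hb rose by 1.03 ± 0.10 and 0.99 ± 0.10 in anti-Tim-4 and isotype Tim-4low cells and by 0.96 ± 0.10 and 1.29 ± 0.11 in Tim-4high cells.

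Pdia3 (ERp57), the partner of calreticulin and calnexin, had 1025, 1065 and 949.7 CPM in anti-Tim-4, 1014, 1087 and 1085 in isotype and 708, 644 and 651 in no-tumor Tim-4low libraries. Pdia3 measured 1162, 1157 and 1057 CPM in anti-Tim-4, 1302, 1287 and 1201 in isotype and 849, 700.4 and 637 in no-tumor Tim-4high libraries. The groups with and without a tumor did not overlap. Pdia3 rose by 0.60 ± 0.09 with anti-Tim-4 and 0.67 ± 0.09 with isotype in Tim-4low cells, and by 0.63 ± 0.09 with anti-Tim-4 and 0.79 ± 0.09 with isotype in Tim-4high cells.

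Pdia4 (ERp72) had 309, 295 and 258 CPM in anti-Tim-4, 304, 352 and 289 in isotype and 223, 159 and 185 in no-tumor Tim-4low libraries. Within Tim-4high cells Pdia4 had 329, 350.5 and 275 CPM in anti-Tim-4, 343, 385 and 309 in isotype and 209, 129 and 124 in no-tumor Tim-4high libraries. No-tumor library 1 was the highest of its group in both populations and still lay below all tumor libraries. The changes were 0.61 ± 0.18 with anti-Tim-4 and 0.74 ± 0.18 with isotype in Tim-4low cells, and 1.05 ± 0.18 and 1.17 ± 0.18 in Tim-4high cells.

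Pdia6, an isomerase that also acts on the sensors, had 492, 517 and 434 CPM in anti-Tim-4, 512, 592 and 547 in isotype and 376, 293 and 333 in no-tumor Tim-4low libraries. The Tim-4high libraries of Pdia6 had 524, 541 and 449 CPM in anti-Tim-4, 651, 657 and 599.7 in isotype and 426, 272 and 245 in no-tumor Tim-4high libraries. It followed the pattern of Pdia4, with all tumor libraries above. Its changes were 0.53 ± 0.16 and 0.72 ± 0.16 in anti-Tim-4 and isotype Tim-4low cells and 0.68 ± 0.16 and 1.02 ± 0.16 in Tim-4high cells, and the call with anti-Tim-4 in Tim-4low cells was lost without no-tumor library 2 (adjusted p = 0.0511).

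The 3 genes of ER-associated degradation, which sends misfolded proteins to the proteasome, split. Edem1, a lectin that marks glycoproteins for removal, had 289.8, 258 and 302 CPM in anti-Tim-4, 282, 298 and 286 in isotype and 222, 237 and 268 in no-tumor Tim-4low libraries. The Tim-4high values of Edem1 were 272, 245 and 262 CPM in anti-Tim-4, 262, 284 and 264 in isotype and 202, 185 and 191 in no-tumor Tim-4high libraries. The anti-Tim-4 Tim-4low group overlapped the no-tumor group, and the other tumor groups lay above. It rose by 0.22 ± 0.08 and 0.25 ± 0.08 with anti-Tim-4 and isotype in Tim-4low cells and by 0.43 ± 0.08 and 0.49 ± 0.08 in Tim-4high cells. The Tim-4low calls were lost in some alternatives, with isotype without no-tumor library 1 (adjusted p up to 0.0746) and with anti-Tim-4 without anti-Tim-4 library 1 or 3 or no-tumor library 1 or 2 (up to 0.125).

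Sel1l, the scaffold of the Hrd1 ubiquitin ligase, had 232, 169.9 and 216 CPM in anti-Tim-4, 207, 228 and 187 in isotype and 155, 157 and 162 in no-tumor Tim-4low libraries. Its Tim-4high levels came to 255, 234 and 216 CPM in anti-Tim-4, 256, 289.9 and 239 in isotype and 177, 168 and 165 in no-tumor Tim-4high libraries. All tumor libraries were above the no-tumor libraries of their population. Sel1l rose by 0.38 ± 0.11 and 0.39 ± 0.11 in Tim-4low and 0.47 ± 0.11 and 0.62 ± 0.11 in Tim-4high cells with anti-Tim-4 and isotype, and the anti-Tim-4 Tim-4low call was lost without anti-Tim-4 library 1 (adjusted p = 0.0524).

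Herpud1 (ENSMUSG00000031770, chr8:94386438-94395377, + strand of mm10), a membrane protein that organises the degradation complex and carries the ER stress element II printed above, went the other way. Herpud1 had 56.6, 44.2 and 66 CPM in anti-Tim-4, 24.8, 32.1 and 36.5 in isotype and 73, 67.6 and 85.2 in no-tumor Tim-4low libraries. In Tim-4high libraries it had 54.8, 36.6 and 64 CPM in anti-Tim-4, 35.1, 45.3 and 43.7 in isotype and 81.5, 73.4 and 87.7 in no-tumor Tim-4high libraries. Every tumor library lay below every no-tumor library of its population. Herpud1 fell with isotype, at -1.27 ± 0.20 (SE) in Tim-4low and -0.97 ± 0.19 in Tim-4high cells (adjusted p = 7.38e-05 and 0.000683). With anti-Tim-4 it fell in Tim-4high cells, at -0.64 ± 0.19, a call lost without anti-Tim-4 library 2 (adjusted p = 0.0649), and in Tim-4low cells its change of -0.44 ± 0.19 was not called (adjusted p = 0.0751).

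The sensors and transcription factors mostly fell with the tumor while the chaperones rose. Of the 6, 5 fell and 1 rose in isotype Tim-4low cells, and 4 fell and 1 rose in isotype Tim-4high cells, with medians of -0.74 and -0.64. With anti-Tim-4, 5 fell in Tim-4low and 4 in Tim-4high cells, and none rose. Of all genes tested, 24.6% (Tim-4low) and 24.1% (Tim-4high) fell with isotype, and 22.9% and 25.5% with anti-Tim-4.

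Ern1 had 128, 113 and 138 CPM in anti-Tim-4, 117, 108 and 92.5 in isotype and 188, 207 and 186 in no-tumor Tim-4low libraries. Ern1 came to 116, 118 and 130 CPM in anti-Tim-4, 119, 108 and 115 in isotype and 248, 203 and 205 in no-tumor Tim-4high libraries. The tumor and no-tumor libraries did not overlap in either population. The change was -0.62 ± 0.10 and -0.88 ± 0.10 in anti-Tim-4 and isotype Tim-4low cells, and -0.85 ± 0.10 and -0.94 ± 0.10 in Tim-4high cells.

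Eif2ak3 had 47, 34.7 and 45.2 CPM in anti-Tim-4, 38, 39.1 and 36.9 in isotype and 63.1, 53.3 and 57 in no-tumor Tim-4low libraries. Its Tim-4high values were 48.3, 36.8 and 42.4 CPM in anti-Tim-4, 38.8, 45.1 and 44.8 in isotype and 53, 46 and 51.3 in no-tumor Tim-4high libraries. The tumor libraries lay below the no-tumor libraries of their population, except that anti-Tim-4 Tim-4high library 1 overlapped. It fell in Tim-4low cells, at -0.45 ± 0.11 with anti-Tim-4 and -0.60 ± 0.12 with isotype, while the Tim-4high changes of -0.24 ± 0.12 and -0.22 ± 0.12 were not called. The difference between the populations is given below.

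Atf6 had 89.4, 73.5 and 90.6 CPM in anti-Tim-4, 89, 94.9 and 81.1 in isotype and 108, 125 and 131 in no-tumor Tim-4low libraries. Atf6 in Tim-4high cells had 85, 77.1 and 78.9 CPM in anti-Tim-4, 73.2, 78 and 74.7 in isotype and 93.4, 92.4 and 98.3 in no-tumor Tim-4high libraries. Every tumor library lay below the no-tumor libraries of its population. Atf6 fell, at -0.52 ± 0.09 and -0.46 ± 0.09 with anti-Tim-4 and isotype in Tim-4low cells and -0.24 ± 0.09 and -0.33 ± 0.09 in Tim-4high cells. The Tim-4high call with anti-Tim-4 was lost without anti-Tim-4 library 2 or 3 or no-tumor library 2 or 3 (adjusted p up to 0.131).

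Xbp1 (ENSMUSG00000020484, chr11:5520659-5525893, + strand of mm10) had 245, 216 and 229 CPM in anti-Tim-4, 264, 274 and 253 in isotype and 197, 198 and 243 in no-tumor Tim-4low libraries. The Tim-4high libraries gave 224, 204 and 195 CPM in anti-Tim-4, 249.7, 254 and 271 in isotype and 198, 168 and 198 in no-tumor Tim-4high libraries. The isotype groups lay above the no-tumor groups of their population, and the anti-Tim-4 groups overlapped them. It was the factor that rose, with isotype in both populations, by 0.31 ± 0.09 in Tim-4low and 0.46 ± 0.09 in Tim-4high cells, while its changes with anti-Tim-4 of 0.11 ± 0.09 and 0.14 ± 0.09 were not called. The Tim-4low call was lost without both no-tumor libraries 1 (adjusted p = 0.0514). Xbp1 works as a splice variant, and the counts do not show it. Of the 4 Xbp1 transcripts in the deposited transcript table, 3 hold the 26-base intron that Ern1 removes and none has its ends joined, so splicing of Xbp1 was not analysed here. The main transcript, Xbp1-201, took 87.4% ± 1.42 of the Xbp1 counts in anti-Tim-4, 88.8% ± 0.84 in isotype and 84.5% ± 1.32 in no-tumor Tim-4low libraries (SD, n = 3).

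Atf4 (ENSMUSG00000042406, chr15:80255184-80257541, + strand of mm10), the factor of the integrated stress response, had 79.7, 83.1 and 82.7 CPM in anti-Tim-4, 74.2, 79.1 and 77 in isotype and 119, 149 and 189 in no-tumor Tim-4low libraries. Atf4 had 68, 67 and 69.3 CPM in anti-Tim-4, 65.3, 60.3 and 59.7 in isotype and 106, 139 and 165 in no-tumor Tim-4high libraries. The tumor groups were tight and lay below every no-tumor library, and the no-tumor groups were wide. The change was -0.90 ± 0.15 and -0.99 ± 0.15 with anti-Tim-4 and isotype in Tim-4low cells. In Tim-4high cells Atf4 fell by 1.00 ± 0.15 with anti-Tim-4, and changed by -1.14 ± 0.15 with isotype. Atf4 is regulated mainly in translation, which RNA counts do not measure. Ddit3 (CHOP), the factor linked to death under lasting stress, had 4.73, 6.79 and 5.25 CPM in anti-Tim-4, 3.84, 3.94 and 5.92 in isotype and 7.88, 7.45 and 10.5 in no-tumor Tim-4low libraries. Its Tim-4high values were 4.23, 5.12 and 5.27 CPM in anti-Tim-4, 4.41, 4.42 and 4.43 in isotype and 9.11, 9.59 and 10.6 in no-tumor Tim-4high libraries. Ddit3 was low throughout and lay below the no-tumor libraries in all tumor libraries, with changes of -0.63 ± 0.18 and -0.92 ± 0.18 in anti-Tim-4 and isotype Tim-4low cells. In Tim-4high cells Ddit3 fell by 1.00 ± 0.18 with anti-Tim-4, and changed by -1.14 ± 0.19 with isotype. Its anti-Tim-4 Tim-4low call was lost without anti-Tim-4 library 1 or no-tumor library 3 (adjusted p up to 0.0769).

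The tested targets of Atf4 and Ddit3 split, while both factors fell. Trib3, a pseudokinase that feeds back on Atf4, had 0.821 to 1.24 CPM in anti-Tim-4, 0.951 to 1.95 in isotype and 0.165 to 0.282 in no-tumor Tim-4low libraries, and 1.24 to 1.92, 1.23 to 1.63 and 0.189 to 0.672 CPM in the Tim-4high libraries of the same conditions. It rose in both populations with both antibodies, by 2.23 ± 0.42 and 2.69 ± 0.42 in Tim-4low and 1.95 ± 0.40 and 1.96 ± 0.40 in Tim-4high cells. Asns, asparagine synthetase, had 0.586 to 1.14, 0.920 to 1.86 and 0.441 to 0.564 CPM in the Tim-4low groups and 0.732 to 1.31, 0.652 to 0.886 and 0.149 to 0.237 CPM in the Tim-4high groups of the same conditions. Asns rose by 1.41 ± 0.33 with isotype in Tim-4low cells and by 2.44 ± 0.39 and 2.12 ± 0.39 with anti-Tim-4 and isotype in Tim-4high cells, with every tumor library above the no-tumor libraries of its population. The change with anti-Tim-4 in Tim-4low cells, 0.82 ± 0.33, was not called (adjusted p = 0.0521).

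Ppp1r15a (GADD34), the phosphatase subunit that restores translation, had 42, 39.8 and 34.4 CPM in anti-Tim-4, 73, 62.3 and 67.5 in isotype and 61.3, 63.4 and 96.5 in no-tumor Tim-4low libraries. In Tim-4high cells Ppp1r15a had 41.7, 34.3 and 31.9 CPM in anti-Tim-4, 77.7, 67 and 71 in isotype and 60.9, 68.5 and 124 in no-tumor Tim-4high libraries. All anti-Tim-4 libraries lay below all isotype and all no-tumor libraries in both populations. Against no tumor it fell with anti-Tim-4, at -0.93 ± 0.22 in Tim-4low and -1.23 ± 0.23 in Tim-4high cells, and with isotype its changes of -0.13 ± 0.22 and -0.23 ± 0.22 were not called.

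**Figure D3:**
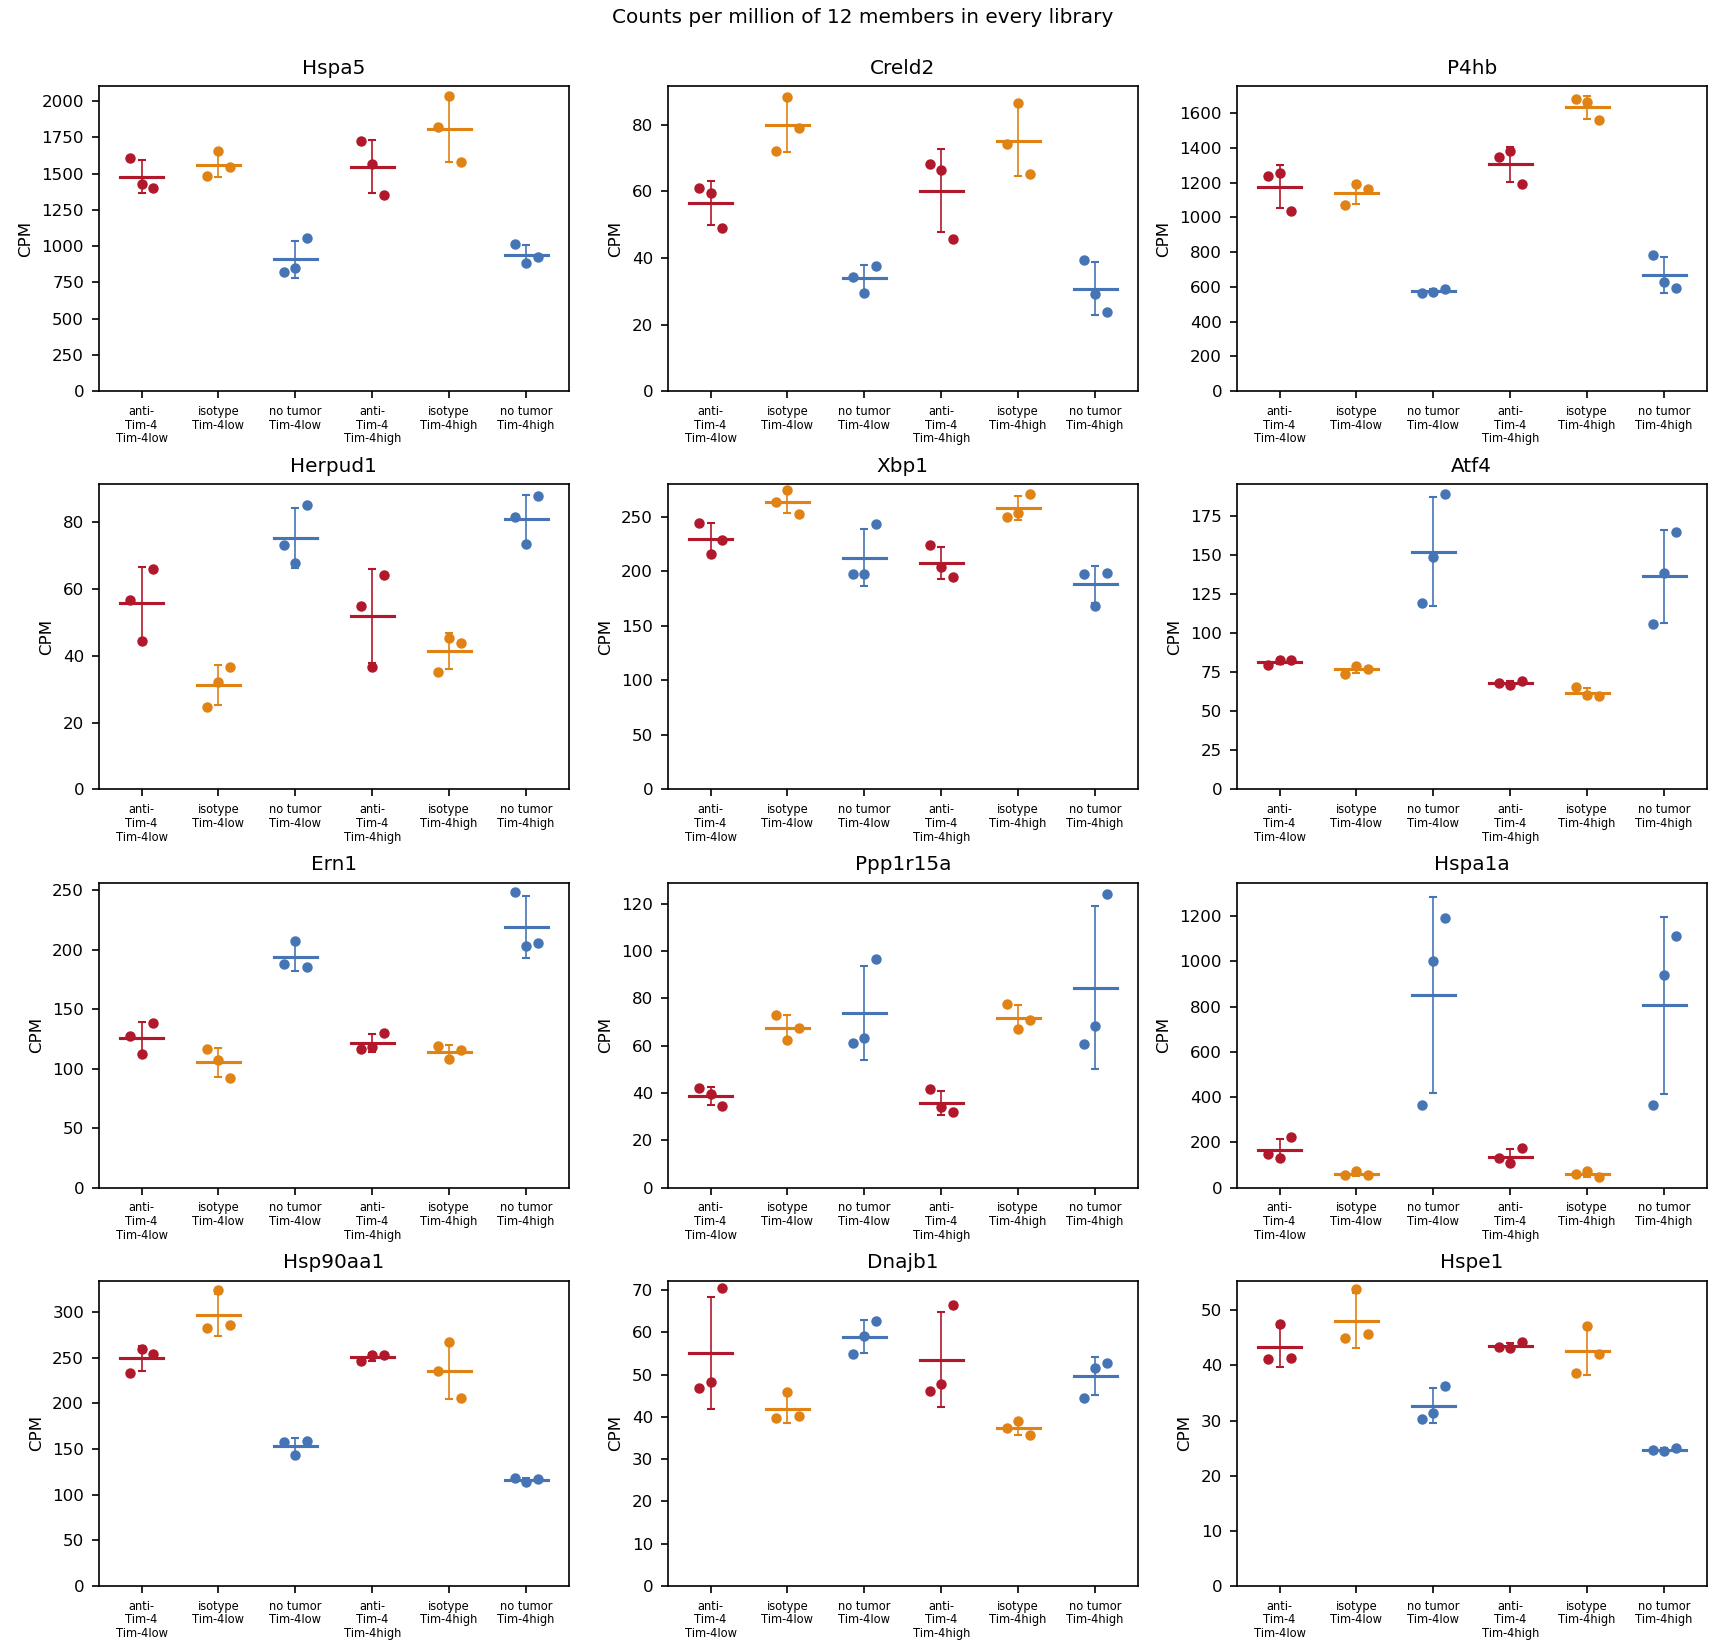
Level in CPM of 12 members in each library, by group, with anti-Tim-4 in red, isotype in orange and no tumor in blue. Points are libraries, the long line is the mean and the bar the SD of 3 libraries. Hspa5, Creld2 and P4hb lie above the no-tumor groups in all tumor groups, Atf4, Ern1 and Hspa1a below, and Ppp1r15a is low in the anti-Tim-4 groups.

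The heat shock genes of the cytosol did not move as one. Of the 9 cytosolic chaperones and cochaperones, 3 rose and 3 fell in isotype Tim-4low cells, and 4 rose and 3 fell in isotype Tim-4high cells, with medians of 0.13 and 0.25. With anti-Tim-4, 5 rose and 2 fell in each population. All genes tested also split in both directions. With isotype 25.2% rose and 24.6% fell in Tim-4low cells, and 27.3% rose and 24.1% fell in Tim-4high cells. With anti-Tim-4 these shares were 23.8% and 22.9%, and 27.4% and 25.5%.

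Hsf1, the heat shock factor, had 26.2, 22.1 and 24.1 CPM in anti-Tim-4, 26, 26.1 and 26.5 in isotype and 33.8, 28.9 and 34.4 in no-tumor Tim-4low libraries. Hsf1 reached 20.5, 21.7 and 23.7 CPM in anti-Tim-4, 25.1, 24.9 and 23.6 in isotype and 30.3, 33.6 and 32.6 in no-tumor Tim-4high libraries. Every tumor library lay below the no-tumor libraries, and Hsf1 fell, at -0.42 ± 0.08 and -0.31 ± 0.08 with anti-Tim-4 and isotype in Tim-4low cells and -0.55 ± 0.08 and -0.39 ± 0.08 in Tim-4high cells. Hsf1 acts after it is freed from chaperones and phosphorylated, which RNA does not show.

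Hspa1a (ENSMUSG00000091971, chr17:34969190-34972156, - strand of mm10), the stress-inducible Hsp70 whose promoter is printed above, had 151, 132 and 223 CPM in anti-Tim-4, 54.6, 72.7 and 54.7 in isotype and 363, 1003 and 1192 in no-tumor Tim-4low libraries. Its Tim-4high values were 131, 108 and 174 CPM in anti-Tim-4, 60.7, 73.5 and 49.4 in isotype and 367, 940.2 and 1111 in no-tumor Tim-4high libraries. The groups stood in the same order in both populations, isotype lowest, anti-Tim-4 between and no tumor highest, with no overlap. No-tumor library 1 was the lowest of its group in both populations. Hspa1a fell, at -2.34 ± 0.42 with anti-Tim-4 and -3.81 ± 0.45 with isotype in Tim-4low cells and -2.55 ± 0.42 and -3.72 ± 0.45 in Tim-4high cells (adjusted p = 0.000347, 5.91e-06, 0.000122 and 6.31e-06).

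Hspa1b (ENSMUSG00000090877, chr17:34956436-34959238, - strand of mm10), the copy, had 173, 143 and 248 CPM in anti-Tim-4, 55.8, 75.2 and 61.9 in isotype and 488, 1293 and 1370 in no-tumor Tim-4low libraries. Hspa1b had 135, 104 and 175 CPM in anti-Tim-4, 54.2, 70.8 and 49.8 in isotype and 507, 1299 and 1316 in no-tumor Tim-4high libraries. The same order held. Hspa1b fell, at -2.48 ± 0.39 and -4.03 ± 0.42 in anti-Tim-4 and isotype Tim-4low cells and -2.91 ± 0.40 and -4.16 ± 0.43 in Tim-4high cells. The sum of both copies changed by -2.42 ± 0.40 and -3.93 ± 0.43 in Tim-4low cells and -2.74 ± 0.41 and -3.95 ± 0.43 in Tim-4high cells, and Hspa1a held 42% to 52.8% of the sum in every library. These genes respond to handling as well as to stress in the animal. The 22 immediate-early genes also respond to handling. They summed to 3916 to 5047 CPM in anti-Tim-4, 6099 to 6906 in isotype and 4725 to 7837 in no-tumor Tim-4low libraries. In the Tim-4high libraries of the same conditions they summed to 3750 to 4719, 7247 to 8967 and 4604 to 8046 CPM. The part of handling in the change of Hspa1a and Hspa1b was not tested.

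Dnajb1, the Hsp40 partner of the inducible Hsp70, had 46.7, 48.2 and 70.5 CPM in anti-Tim-4, 39.8, 45.8 and 40.2 in isotype and 54.9, 59.1 and 62.7 in no-tumor Tim-4low libraries. Within Tim-4high cells Dnajb1 had 46.2, 47.9 and 66.4 CPM in anti-Tim-4, 37.3, 39.1 and 35.8 in isotype and 44.5, 51.6 and 52.8 in no-tumor Tim-4high libraries. The isotype libraries lay below the no-tumor libraries of their population, and the anti-Tim-4 libraries overlapped them. Dnajb1 fell with isotype, at -0.49 ± 0.15 in Tim-4low and -0.41 ± 0.15 in Tim-4high cells (adjusted p = 0.0134 and 0.0345). The Tim-4low call was lost without no-tumor library 3 (adjusted p up to 0.0547), and the Tim-4high call without any 1 of isotype libraries 1, 2 and 3 and no-tumor libraries 2 and 3 (up to 0.104).

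Hsp90aa1 (ENSMUSG00000021270, chr12:110690605-110702728, - strand of mm10), the inducible Hsp90, had 233, 259.8 and 254 CPM in anti-Tim-4, 282, 324 and 285 in isotype and 157, 143 and 159 in no-tumor Tim-4low libraries. Hsp90aa1 stood at 246, 253 and 253 CPM in anti-Tim-4, 235, 267 and 206 in isotype and 118, 114 and 117 in no-tumor Tim-4high libraries. Every tumor library was above every no-tumor library. Hsp90aa1 rose by 0.70 ± 0.09 and 0.96 ± 0.09 with anti-Tim-4 and isotype in Tim-4low cells and by 1.11 ± 0.09 and 1.02 ± 0.09 in Tim-4high cells, opposite to Hspa1a in the same libraries. Its constitutive relative Hsp90ab1 had 1384, 1576 and 1620 CPM in anti-Tim-4, 1661, 1879 and 1614 in isotype and 1292, 1135 and 1164 in no-tumor Tim-4low libraries. Hsp90ab1 had 1372, 1389 and 1477 CPM in anti-Tim-4, 1309, 1423 and 1343 in isotype and 1153, 1075 and 1007 in no-tumor Tim-4high libraries. All tumor libraries lay above the no-tumor libraries of their population. It rose by less, by 0.35 ± 0.09 and 0.52 ± 0.09 in Tim-4low and 0.39 ± 0.09 and 0.33 ± 0.09 in Tim-4high cells.

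Hspa8, the constitutive Hsp70, had 1529, 1454 and 1804 CPM in anti-Tim-4, 1259, 1471 and 1363 in isotype and 1117, 1235 and 1331 in no-tumor Tim-4low libraries. The Tim-4high values of Hspa8 were 1520, 1403 and 1597 CPM in anti-Tim-4, 1262, 1493 and 1268 in isotype and 937, 1031 and 1036 in no-tumor Tim-4high libraries. The isotype Tim-4low group overlapped the no-tumor group, and the other tumor groups lay above. It rose in anti-Tim-4 Tim-4low cells by 0.38 ± 0.10 and in anti-Tim-4 and isotype Tim-4high cells by 0.59 ± 0.10 and 0.42 ± 0.10, and its isotype Tim-4low change of 0.15 ± 0.10 was not called.

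Hsph1 (Hsp105), a nucleotide exchange factor for Hsp70 with a heat shock element just past its start, had 53.8, 49.1 and 69.5 CPM in anti-Tim-4, 57.6, 72.2 and 63.6 in isotype and 43.7, 34 and 41.2 in no-tumor Tim-4low libraries. Hsph1 gave 53, 40.2 and 59.9 CPM in anti-Tim-4, 50.1, 67 and 43.9 in isotype and 31.4, 28.2 and 33.8 in no-tumor Tim-4high libraries. The tumor libraries were above the no-tumor libraries of their population. Hsph1 rose by 0.54 ± 0.17 and 0.70 ± 0.17 in Tim-4low and 0.71 ± 0.18 and 0.78 ± 0.18 in Tim-4high cells, and the anti-Tim-4 Tim-4low call was lost without anti-Tim-4 library 3 or no-tumor library 2 (adjusted p up to 0.0921).

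Bag3, a cochaperone of selective autophagy and a common Hsf1 target, had 51.1, 49.6 and 63.2 CPM in anti-Tim-4, 39.1, 44.5 and 42 in isotype and 32.3, 39.2 and 43.1 in no-tumor Tim-4low libraries. Its Tim-4high levels were 57.6, 53.7 and 63.4 CPM in anti-Tim-4, 44.6, 49.2 and 53.2 in isotype and 32.2, 45.8 and 45.6 in no-tumor Tim-4high libraries. Every anti-Tim-4 library was above the no-tumor and the isotype libraries of its population. It rose with anti-Tim-4, by 0.52 ± 0.14 in Tim-4low and 0.50 ± 0.14 in Tim-4high cells, and with isotype its changes of 0.13 ± 0.14 and 0.25 ± 0.14 were not called. Hspb1 (Hsp25), a small heat shock protein, lay at 2.16 to 13.1 CPM, varied widely within groups and was called in no comparison without the replicate block.

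Both genes of the mitochondrial chaperonin rose with the tumor, where 23.8% to 27.4% of all genes tested rose. Hspd1 (Hsp60) had 93.2, 93.5 and 87.9 CPM in anti-Tim-4, 95.9, 111 and 93.5 in isotype and 65.9, 67.3 and 71.8 in no-tumor Tim-4low libraries. In Tim-4high libraries Hspd1 had 99.6, 95 and 93.3 CPM in anti-Tim-4, 92.3, 101 and 90.4 in isotype and 70.7, 69.1 and 74.1 in no-tumor Tim-4high libraries. Its partner Hspe1 (Hsp10) had 41.1, 47.5 and 41.3 CPM in anti-Tim-4, 44.9, 53.9 and 45.6 in isotype and 30.3, 31.4 and 36.3 in no-tumor Tim-4low libraries. For Tim-4high cells Hspe1 gave 43.3, 43.1 and 44.2 CPM in anti-Tim-4, 38.7, 47.2 and 42 in isotype and 24.6, 24.4 and 25 in no-tumor Tim-4high libraries. All tumor libraries of both genes lay above the no-tumor libraries of their population. Hspd1 rose with anti-Tim-4 and isotype by 0.42 ± 0.07 and 0.55 ± 0.07 in Tim-4low cells and by 0.43 ± 0.07 and 0.41 ± 0.07 in Tim-4high cells. Hspe1 rose with anti-Tim-4 and isotype by 0.40 ± 0.09 and 0.56 ± 0.09 in Tim-4low cells and by 0.82 ± 0.09 and 0.79 ± 0.09 in Tim-4high cells.

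The next comparison asked what anti-Tim-4 changed in tumor mice. In Tim-4high cells 3 members were called, Ppp1r15a and Xbp1 lower and Dnajb1 higher with anti-Tim-4, against a background of 7.97%, 4.3% up and 3.67% down. Leaving out 1 library left 0 to 2 of the members called, and leaving out both isotype libraries 3 left none, while the compared groups fitted alone gave 7. In Tim-4low cells edgeR called none of the members, against a background of 0.325%, although 13 members had an unadjusted p under 0.05 and DESeq2 called 5. In the Tim-4high cells 6 members had an unadjusted p under 0.05 and DESeq2 called 6. The median over the members was -0.09 in Tim-4low and -0.07 in Tim-4high cells, against -0.02 and 0.00 over all genes.

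Ppp1r15a fell by 1.00 ± 0.23 in Tim-4high cells (adjusted p = 0.0193) and changed by -0.80 ± 0.22 in Tim-4low cells (adjusted p = 0.142). The Tim-4high call was lost without anti-Tim-4 library 2 or 3 or isotype library 1 or 3 (adjusted p up to 0.12). Xbp1 fell by 0.31 ± 0.09 in Tim-4high cells (adjusted p = 0.0496), and Dnajb1 rose by 0.52 ± 0.15 (adjusted p = 0.0491). The Xbp1 call was lost without any 1 of the 6 compared libraries (adjusted p up to 0.22), and the Dnajb1 call without any 1 of them other than anti-Tim-4 library 1 (up to 0.258) and with RLE scaling.

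Hspa1a and Hspa1b were higher in every anti-Tim-4 library than in every isotype library of the same population, and neither passed the test. In both populations, anti-Tim-4 library 3 held the highest Hspa1a, Hspa1b and Dnajb1 of its group. Hspa1a differed by 1.48 ± 0.41 in Tim-4low and 1.17 ± 0.41 in Tim-4high cells (adjusted p = 0.141 and 0.0845), and Hspa1b by 1.55 ± 0.38 and 1.24 ± 0.38 (adjusted p = 0.106 and 0.0571). The sum of the copies gave 1.51 ± 0.39 and 1.21 ± 0.39 (adjusted p = 0.123 and 0.068). The widths of the standard errors came from 1 spread shared by all groups, and the no-tumor groups of Hspa1a varied most. In the authors' deposited table for Tim-4high cells, which sets anti-Tim-4 over isotype, Hspa1a stood at a fold of 2.25 with a false discovery rate (FDR) of 0.000137, and Hspa1b at 2.37 with an FDR of 7.53e-05. The authors' deposited table put 8 members under an FDR of 0.05 there, with Dnajb1 higher beside these copies and Calr, Pdia6, P4hb, Xbp1 and Ppp1r15a lower.

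Herpud1 differed by 0.84 ± 0.19 in Tim-4low cells, with every anti-Tim-4 library above every isotype library (adjusted p = 0.092), and by 0.32 ± 0.19 in Tim-4high cells, where the groups overlapped. The ER chaperones and isomerases had values just below 0 for the most part, with medians of -0.10 and -0.10 in Tim-4low and -0.21 and -0.25 in Tim-4high cells. Libraries of the antibody groups did not overlap, in either direction, for 15 of 39 members in Tim-4low and 11 of 39 in Tim-4high cells, against 18% and 39.2% of all genes tested. Of the 22 immediate-early genes, 12 fell in the Tim-4high cells, where 3.67% of all genes tested fell. The part of the immediate-early genes in the changes of Ppp1r15a and Hspa1a was not tested.

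**Figure D4:**
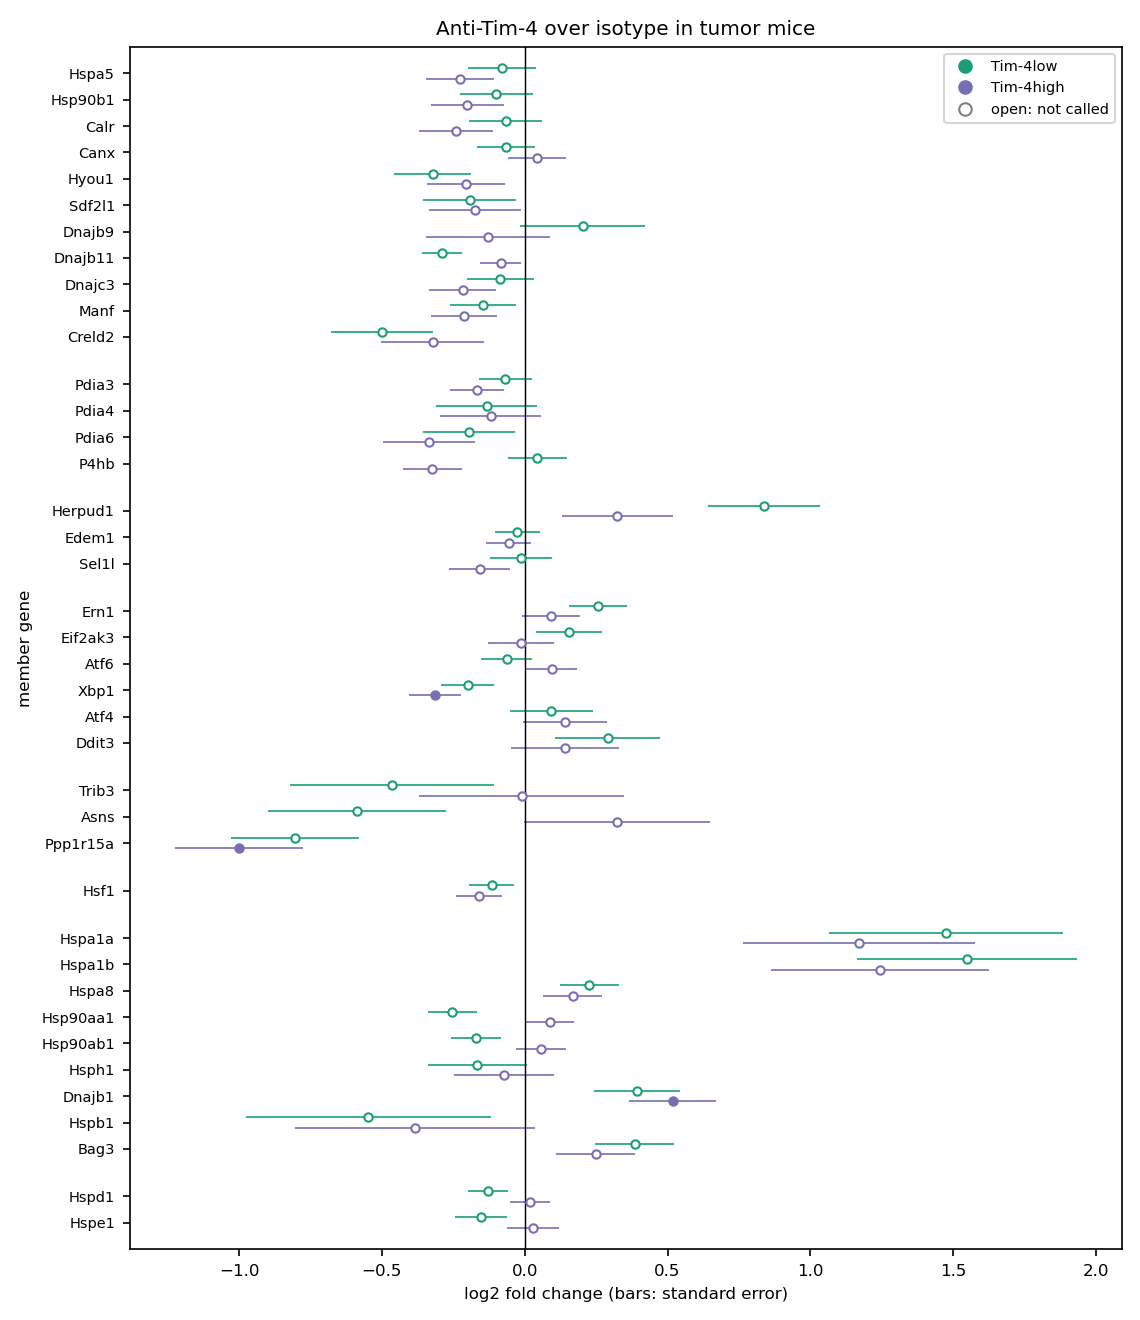
Log2 fold change of each member with anti-Tim-4 over isotype in tumor mice, with its standard error, in Tim-4low (green) and Tim-4high (violet) cells. The filled points, 3 in Tim-4high and none in Tim-4low cells, passed an adjusted p of 0.05, and Hspa1a and Hspa1b lie farthest to the right as open points.

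The last comparison set Tim-4low against Tim-4high macrophages within each condition. With anti-Tim-4 edgeR called none of the 39 members, against a background of 1.39%, with 0 at an unadjusted p under 0.05 and 0 by DESeq2. With isotype, 3 were higher and 2 lower in Tim-4low cells, against 24.1%, 11.3% up and 12.9% down. Without both isotype libraries 3 there were 2 in all, without any 1 library 2 to 4, by DESeq2 8 and with the isotype groups fitted alone 11. Without a tumor 7 were higher and none lower, against 24.6%, 12.8% up and 11.8% down. The medians over the members were -0.01, 0.02 and 0.08, and those over all genes 0.00, 0.01 and 0.02.

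Library numbers paired the populations within a condition, and with the number as a block the members called were 4 with anti-Tim-4 (3 higher), 18 with isotype (8 higher) and 16 without a tumor (14 higher), against backgrounds of 7.12%, 34.1% and 34.3%. With the block and anti-Tim-4, Atf4, Hspa1a and Hspa1b were higher in Tim-4low cells, by 0.27, 0.29 and 0.44, and Hspb1 was lower, at -0.82. With the block and isotype, the members lower in Tim-4low cells were the ER genes Calr (-0.31), Pdia3 (-0.25), P4hb (-0.52), Dnajc3 (-0.29), Dnajb9 (-0.56), Herpud1 (-0.42), Sel1l (-0.34) and Eif2ak3 (-0.17) and the cytosolic Hspb1 and Bag3. The members higher there were Hsp90aa1, Hsp90ab1, Hsph1 and Dnajb1 of the cytosol, the factors Atf4 and Atf6, and Dnajb11 and Asns. Without a tumor, Hsp90aa1, Hspa8, Hsph1, Dnajb1, Hspe1, Manf, Pdia4, Dnajb11, Sdf2l1, Edem1, Eif2ak3, Atf4, Atf6 and Asns were higher in Tim-4low cells with the block, and Dnajb9 and Hspb1 lower.

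Hsp90aa1 was higher in Tim-4low cells both with isotype, at 0.33 ± 0.09, and without a tumor, at 0.40 ± 0.09 (adjusted p = 0.0105 and 0.00314). So was Dnajb11, at 0.22 ± 0.07 and 0.30 ± 0.07. The isotype calls were lost without single libraries: that of Hsp90aa1 without Tim-4low library 2 or Tim-4high library 3 (adjusted p up to 0.0659), and that of Dnajb11 without any 1 of the 6 libraries but Tim-4high library 2 (up to 0.169). Hsp90ab1 was higher with isotype at 0.34 ± 0.09, a call lost without Tim-4low library 2 or Tim-4high library 1 (adjusted p up to 0.0615).

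P4hb was lower in Tim-4low cells with isotype, at -0.52 ± 0.10 (adjusted p = 0.00225), and kept its call in all 13 alternatives. Sel1l was lower at -0.34 ± 0.11, a call lost without Tim-4low library 1 or 3 or Tim-4high library 1 or 2 (adjusted p up to 0.138).

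Without a tumor, Atf6, Edem1 and Hspe1 were higher in Tim-4low cells, at 0.36 ± 0.09, 0.33 ± 0.08 and 0.40 ± 0.09. Hspa8 was higher at 0.29 ± 0.10, with an adjusted p of 0.0481, and lost its call in 8 of 13 alternatives, among them those without Tim-4low library 2 or 3 or any 1 of the 3 Tim-4high libraries (adjusted p up to 0.204). Asns was higher at 1.52 ± 0.40 with Tim-4low levels of 0.441 to 0.564 CPM against Tim-4high levels of 0.149 to 0.237 CPM, and its call was lost without both no-tumor libraries 1 (adjusted p = 0.084). Of the 7 plasma cell markers, 5 were tested. Sdc1, Prdm1 and Irf4 were also higher in the no-tumor Tim-4low libraries, and the other 2 tested were not called. The whole list summed to 242 to 321 CPM against 54.2 to 91.3 CPM in Tim-4high. The part of plasma cells in these differences was not tested. In the authors' deposited table for this comparison, 6 members were under an FDR of 0.05, Dnajb11, Edem1, Atf6, Hspa8, Hsp90aa1 and Hspe1, each lower in Tim-4high, with folds of -1.22 to -1.32 for Tim-4high over Tim-4low as deposited.

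**Figure D5:**
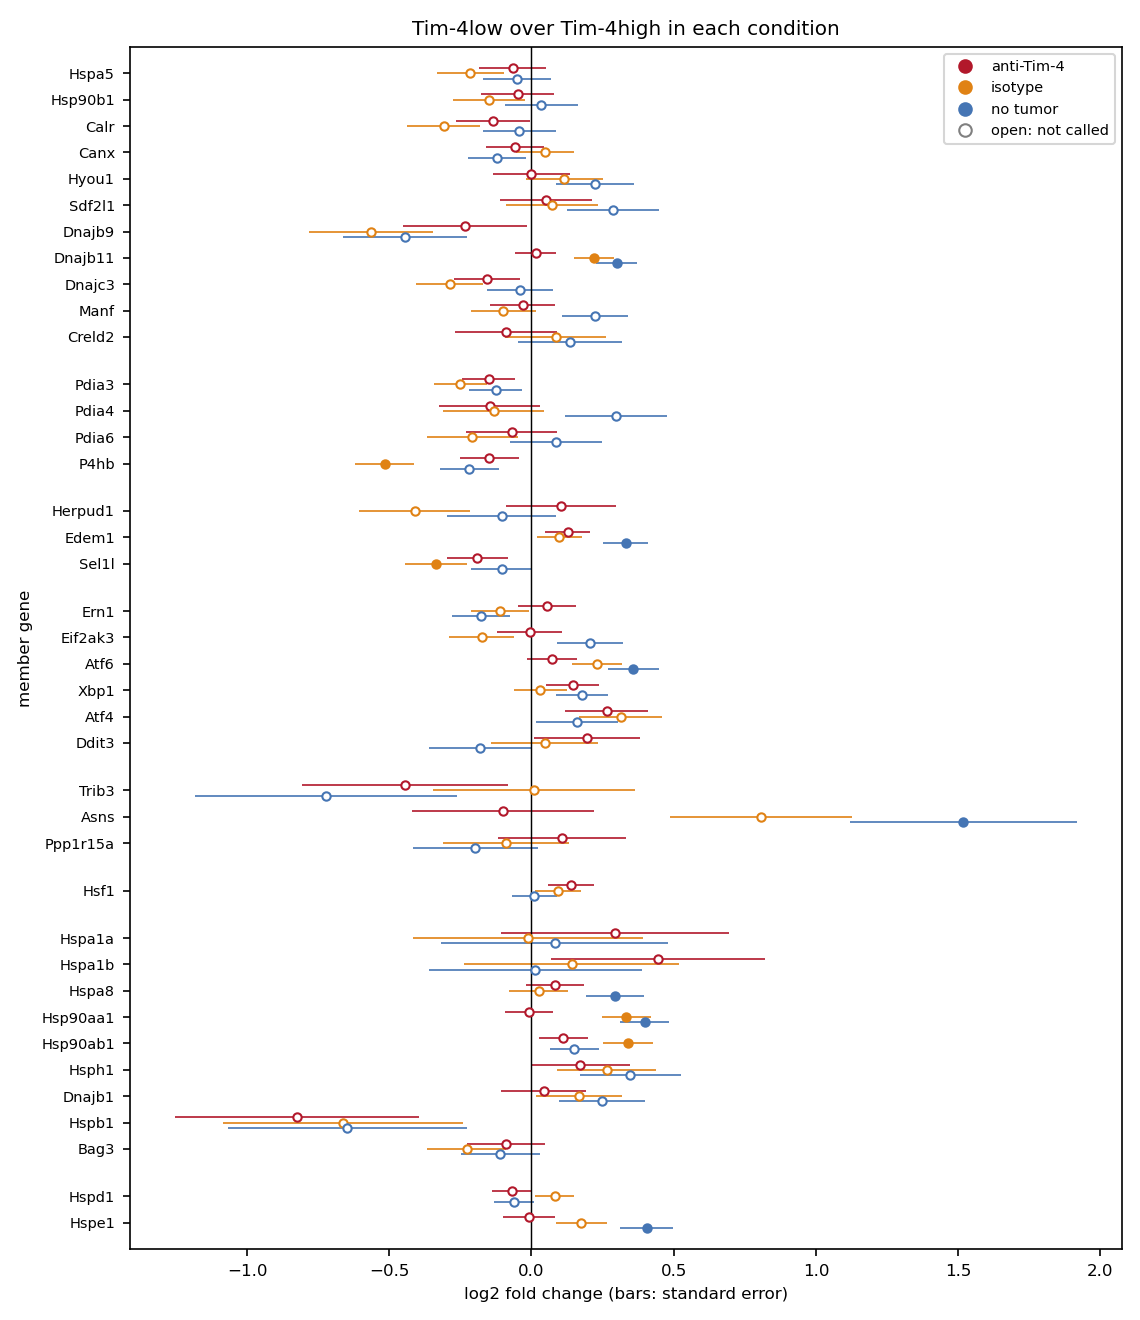
Log2 fold change of each member in Tim-4low over Tim-4high cells, with its standard error, with anti-Tim-4 (red), isotype (orange) and no tumor (blue). Of the filled points, which passed an adjusted p of 0.05, 5 belong to isotype, 7 to no tumor and none to anti-Tim-4, and most points lie within 0.5 of 0.

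Whether the changes themselves differed between the populations was tested as an interaction. For the tumor (isotype over no tumor, Tim-4low minus Tim-4high), edgeR called none of the members, against a background of 3.53%, with 1 at an unadjusted p under 0.05 and none by DESeq2. With the replicate block 3 members were called, against 11.2%: Eif2ak3 at -0.38, Pdia4 at -0.46 and Manf at -0.31 (adjusted p = 0.0156, 0.0214 and 0.0467). Pdia4 and Manf rose less in Tim-4low than in Tim-4high cells, and Eif2ak3 fell more. For the antibody (anti-Tim-4 over isotype, Tim-4low minus Tim-4high), edgeR called none, against 2.93%, with 2 at an unadjusted p under 0.05 and none by DESeq2. With the block 3 were called, against 15.7%: Herpud1 at 0.54, Hspa1b at 0.29 and Hsp90aa1 at -0.35 (adjusted p = 0.00279, 0.0494 and 0.0134).

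Other genes of the same pathways were read from lists chosen with earlier results of these data known. Of 44 tested genes of ER translocation and folding outside the members, 30 rose and none fell in isotype Tim-4low cells, and 36 rose and 1 fell in isotype Tim-4high cells, relative to no tumor, with medians of 0.32 and 0.50. The called share was 68.2% and 84.1%, against 49.8% and 51.5% of all genes tested. With anti-Tim-4 over no tumor, 29 rose and 2 fell in Tim-4low and 29 rose and 1 fell in Tim-4high cells. Ero1l, the oxidase that recharges the disulfide isomerases, had 184 ± 21.2 CPM in isotype and 40.9 ± 2.31 in no-tumor Tim-4low libraries, and 225 ± 33.3 and 39.2 ± 3.31 CPM in Tim-4high libraries (SD, n = 3 each). It rose by 2.17 and 2.52. The translocon-associated subunit Ssr2 rose by 0.88 and 1.49, and the signal peptidase subunit Spcs1 by 0.53 and 0.65.

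Of 23 other degradation genes, 5 rose and 6 fell in Tim-4low cells and 7 rose and 3 fell in Tim-4high cells, with isotype over no tumor. These shares, 47.8% and 43.5%, were no higher than those of all genes tested, 49.8% and 51.5%. Vcp, the ATPase that pulls substrates out of the ER, rose by 0.53 and 0.61. Of 36 other genes of the integrated stress response, 19 rose and 3 fell in Tim-4low and 22 rose and 4 fell in Tim-4high cells, or 61.1% and 72.2%. Slc3a2, the heavy chain of amino acid transporters, rose by 1.45 and 1.01, and the tRNA synthetase gene Aars by 0.65 and 0.89. The glutamine transporter gene Slc38a2 fell by 1.14 in Tim-4high cells. Of 44 other heat shock and chaperonin genes, 26 rose and 3 fell in Tim-4low and 23 rose and 2 fell in Tim-4high cells, or 65.9% and 56.8%. The Hsp70 cochaperone St13 rose by 0.63 and 0.95, and the cytosolic chaperonin subunit Cct3 by 0.70 and 0.64.

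With anti-Tim-4 over isotype, no gene of these 4 lists passed edgeR's test in Tim-4low cells, where 0.325% of all genes did. In Tim-4high cells 8 of the 44 ER folding genes fell and none rose, among them the exchange factor Sil1 at -0.53 and the cargo receptor Lman1 at -0.42. There 1 degradation gene rose and 2 fell, 2 integrated stress response genes rose and 1 fell, and 2 heat shock and chaperonin genes rose and 1 fell. The called shares of the 4 lists were 18.2%, 13.0%, 8.33% and 6.82%, against 7.97% of all genes tested. Between populations, 12 of the 44 were lower and none higher in Tim-4low than in Tim-4high cells with isotype, Sil1 at -0.91 and Lman1 at -0.73 included, and 8 were lower and 5 higher without a tumor. These made up 27.3% and 29.5% of the list, against 24.1% and 24.6% of all genes tested.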

How the data were processed

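Per the labels' protocols, sorted cells were frozen in trizol and RNA was sequenced as Illumina libraries. STAR and DESeq2 are named, and the build is mm10, per the submitters' processing notes, with no versions. The deposited gene table holds estimated counts (expected counts) per gene, of which 62.8% to 66.8% per library were whole within 0.001. They were rounded to whole numbers here. The authors' deposited tables of comparisons hold a signed fold change (ratio), a p-value and a false discovery rate. In them a negative fold was lower in Tim-4high than in Tim-4low cells, and lower with anti-Tim-4 than with isotype, as the counts showed for all 2972 and 3163 genes under an FDR of 0.05.

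The members, gene lists, rules and tests were chosen with earlier results of these data known. Called members of at least 10 CPM, and every sensor and factor, are named with each library's value. For the other lists, up to 4 genes of smallest p per comparison could be named. Genes of low count were removed with filterByExpr of edgeR 4.0.16 (R 4.3.3), leaving 16609 of 23511. TMM scaling and edgeR's quasi-likelihood test, with 1 model over all 18 libraries (12 residual degrees of freedom) and Benjamini-Hochberg adjustment over all genes tested, gave the 11 comparisons. Two-sided adjusted p under 0.05 was called. Each standard error (SE) was worked back from the test, as the absolute log2 fold change divided by the square root of the F statistic. CPM were computed from the same counts and TMM-scaled totals. TPM came from the deposited transcript counts and from transcript lengths of the GENCODE annotation. The fit was also run on simulated counts drawn independently for each library. Such counts lack the pairing of libraries described next, so that run says nothing about it.

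Within a condition, same-numbered Tim-4low and Tim-4high libraries deviated together (r = 0.31 to 0.60 in 9 pairs, against -0.56 to 0.29 for other numbers), so the number was used as a block in an alternative. Across conditions r was -0.44 to 0.15 within a population and -0.32 to 0.29 between populations, so those libraries share only a number. No pair of libraries within a group agreed within sampling noise (chi-square per degree of freedom 10.5 to 83.4). Alternatives were RLE scaling, no filter on low counts, robust fitting, DESeq2 1.42.0, a fit of only the compared groups, the block, leaving out each library and, added after seeing the data, leaving out both isotype libraries 3 or both no-tumor libraries 1, a block across conditions and the sum of Hspa1a and Hspa1b.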

Additional observations from a re-analysis of the deposited data

Results flagged for a closer look

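No member differed between the populations in its change by edgeR's quasi-likelihood test without the block. Of the other pathway genes, 7 had changes that differed between Tim-4low and Tim-4high cells by the interaction at an adjusted p under 0.05. The 4 lists held 44, 23, 36 and 44 tested genes. Of all genes tested, 3.53% passed for the tumor and 2.93% for the antibody, so 7 is no excess over the whole set. Without both isotype libraries 3, 264 and 9 of all genes passed, against 587 and 487 with them.

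For isotype tumor over no tumor, Ssr2, a translocon-associated subunit, had an interaction (Tim-4low minus Tim-4high) of -0.61, with 127 ± 6.01 CPM in isotype and 68.8 ± 8.61 CPM in no-tumor Tim-4low libraries and 132 ± 1.20 and 46.8 ± 2.88 CPM in Tim-4high libraries (SD, n = 3 each). Erlec1, a lectin of ER-associated degradation, had -0.57, with 23.5 ± 1.26 CPM in isotype and 22.0 ± 2.97 CPM in no-tumor Tim-4low libraries and 31.1 ± 0.689 and 19.7 ± 1.27 CPM in Tim-4high libraries. Mthfd2, a mitochondrial folate enzyme and Atf4 target, had -1.35, with 18.3 ± 0.715 CPM in isotype and 23.0 ± 4.93 CPM in no-tumor Tim-4low libraries and 11.2 ± 1.33 and 5.58 ± 1.52 CPM in Tim-4high libraries. Sars, a tRNA synthetase, had -0.41, with 78.8 ± 2.28 CPM in isotype and 66.2 ± 1.99 CPM in no-tumor Tim-4low libraries and 91.8 ± 7.22 and 58.3 ± 0.818 CPM in Tim-4high libraries.

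For anti-Tim-4 over isotype, Ube2j1, a ubiquitin-conjugating enzyme of the ER, had -0.88, with 76.4 ± 12.8 CPM with anti-Tim-4 and 93.8 ± 9.37 CPM with isotype in Tim-4low libraries and 74.9 ± 2.77 and 50.1 ± 7.03 CPM in Tim-4high libraries. Slc3a2 had -0.56, with 187 ± 22.2 CPM with anti-Tim-4 and 235 ± 10.8 CPM with isotype in Tim-4low libraries and 194 ± 15.8 and 165 ± 13.0 CPM in Tim-4high libraries. St13, an Hsp70 cochaperone, had 0.40, with 207 ± 21.6 CPM with anti-Tim-4 and 195 ± 10.9 CPM with isotype in Tim-4low libraries and 229 ± 13.6 and 286 ± 2.63 CPM in Tim-4high libraries.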

How the results depend on the processing

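No called member reversed in any alternative. Of the calls, 28 of 34 (Tim-4low) and 32 of 33 (Tim-4high) held in every alternative for isotype over no tumor, 24 of 30 and 28 of 33 for anti-Tim-4 over no tumor, 1 of 5 for the populations with isotype, 5 of 7 without a tumor and 0 of 3 for the antibody in Tim-4high cells. The cause of the changes below was not tested.

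With the number as a replicate block within a condition, members called were 16 (no tumor), 18 (isotype) and 4 (anti-Tim-4, with 1182 genes) between populations, and 3 in each interaction, with 1858 genes for the tumor and 2609 for the antibody. With the replicate block across conditions, whose numbers do not pair libraries, anti-Tim-4 over isotype gave 5 members in Tim-4high and 1 in Tim-4low cells. Fitting only the compared groups gave 2472 genes between populations without a tumor (reported: 4086), 11 members with isotype (reported: 5) and 445 genes with anti-Tim-4 (reported: 231), and for the antibody 7 members and 2990 genes in Tim-4high (reported: 3 and 1324), 3 genes in Tim-4low (reported: 54) and 976 in the interaction (reported: 487). DESeq2 gave 8 members between populations with isotype, 529 genes with anti-Tim-4, 6 members and 2128 genes for the antibody in Tim-4high, 5 and 295 in Tim-4low, and 1040 and 1297 genes in the tumor (reported: 587) and antibody interactions. Without a filter on low counts, 3 members were called between populations with isotype, and 1 member in Tim-4high and 34 genes in Tim-4low cells for the antibody.

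Leaving out 1 library gave 2 to 4 members and 2625 to 3485 genes between populations with isotype, 25 to 139 genes with anti-Tim-4, 0 to 2 members and 10 to 1160 genes for the antibody in Tim-4high, 2 to 40 genes in Tim-4low, 321 to 889 genes and 0 to 2 members in the tumor interaction, and 1 to 1418 genes in the antibody interaction. Without both isotype libraries 3 these were 2 members between populations with isotype, 0 members and 210 genes in Tim-4high, 5 genes in Tim-4low, and 264 and 9 genes in the tumor and antibody interactions, and without both no-tumor libraries 1 the tumor interaction gave 911 genes. Low counts limit Trib3, Asns and Chac1, and 3 libraries a group limit the rest.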
